A study of Mus musculus with 20 samples.

Results

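Immediate early genes are transcribed within minutes of a stimulus, without new protein synthesis, when mitogen-activated protein kinases (MAPK) phosphorylate transcription factors already bound to their promoters. In macrophages they respond to cytokines, microbial products, adhesion and stress, and enzymatic dissociation of a tissue can induce them before the RNA is fixed. Their transcripts decay quickly, so that their level reflects the recent history of a cell. The genes followed here were 10 such genes (Fos, Fosb, Jun, Junb, Egr1, Ier2, Dusp1, Atf3, Zfp36 and Btg2), chosen by symbol from the deposited expression table. Of these, 8 had a row under their symbol, among 59311 rows in all, and all 8 passed the filter on low values. Jun and Junb, which pair with Fos proteins in the AP-1 transcription factor, had no row under their symbols and are not analysed here. A row without a symbol overlaps each locus (0 to 147 normalized counts at Jun and 0 to 9729 at Junb), but no label pairs these rows with the genes.

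The data came from liver monocyte-derived macrophages (MoMac) of 10 C57BL/6 mice, young adult males, in which fibrosis had been induced by 4 weeks of the hepatotoxin carbon tetrachloride (CCl4). All mice received CCl4. Then 5 mice (numbers 11 to 15) were given the vehicle, dilute DMSO in saline, and 5 (numbers 16 to 20) were given acetyl-6-formylpterin (Ac-6-FP), a ligand that occupies the antigen-presenting molecule MR1 without activating mucosal-associated invariant T (MAIT) cells. Injections began shortly before the last CCl4 dose and continued daily during early regression. From each digested liver, CD11b+ F4/80+ cells negative for Ly6G, CD11c and CD3 were sorted by flow cytometry into Ly6Chi and Ly6Clo MoMac, giving 20 libraries from 4 groups of 5 mice. The comparisons ask how MR1 blockade and the MoMac subset relate to the level of these genes, and how far libraries differ from each other in them. No undissociated or unsorted liver sample was analysed here, so an effect of digestion that all libraries share cannot be told apart from the level in the tissue.

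Values are normalized counts, read counts divided by a size factor for each library and not by gene length, so levels were compared between libraries and not between genes. Reads on genes ranged from 5693049 to 18682437 over the 19 libraries in which they could be recovered. The number of genes detected ranged from 5343 to 15766. The Ly6Clo vehicle library of mouse 13 stood apart, with the fewest reads, the fewest genes detected and 2765 of 6652 commonly expressed genes at 0, and the main results that rest on it are also given without it. The macrophage gene Adgre1 was at 1058 normalized counts or more in every library, Itgam was at 658 or more in Ly6Chi libraries but at 2.09 in the Ly6Clo library of mouse 13, which is within the 3 reads that a 0 allows, and Ly6c2 ranged from 4930 to 10012 in Ly6Chi and from 284 to 1014 in Ly6Clo libraries. Of the T and NK cell markers, Nkg7, Ncr1 and Klrb1c separated the subsets. The summed level of 5 T and NK cell markers ranged from 0 to 457 in Ly6Chi and from 22011 to 48979 in Ly6Clo libraries. The T cell markers were low, with Cd3e at 0 or up to 11.1 and Cd3g at 226 or less. The summed level of 6 neutrophil markers overlapped (8756 to 15089 in Ly6Chi and 10329 to 125311 in Ly6Clo libraries), and its members differed in direction. Retnlg reached at most 504 in Ly6Chi but ranged from 9064 to 117062 in Ly6Clo libraries and Cxcr2 was at 48.4 or less against up to 1448, whereas Mmp8 ranged from 4795 to 11430 in Ly6Chi but reached at most 1171 in Ly6Clo libraries. S100a8 and S100a9 overlapped, and Ly6g, the defining neutrophil marker, stayed at or below 192. Summed dendritic cell, endothelial, B cell, hepatocyte and erythroid markers had higher medians in both Ly6Clo groups than in both Ly6Chi groups, with overlapping ranges. Among them Itgax, which encodes CD11c, was at 0 in all Ly6Chi libraries and ranged from 0 to 3302 in Ly6Clo libraries, and Pecam1 was at most 331 against 0 to 4227. The dendritic cell marker Zbtb46 and the endothelial markers Stab2, Kdr and Cdh5 had medians of 10.2 or less in every group. Medians with vehicle and Ac-6-FP were 174 and 123 in Ly6Clo but 0 and 5.16 in Ly6Chi libraries for the dendritic cell marker Flt3. For the endothelial marker Clec4g they were 110 and 88.1 against 0 and 3.44. The dendritic cell markers Xcr1 and Siglech had medians of at most 70.7 (Ly6Clo with Ac-6-FP) and 101 (Ly6Chi with Ac-6-FP). In bulk RNA, fewer cells of a type and less RNA per cell cannot be told apart.

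The promoters of 4 of these genes are shown because Fos, Zfp36 and Btg2 varied together between libraries whereas Dusp1 did not in the values that follow. The sequences were taken from RefSeq (GRCm38.p6) and end at the base before the transcription start. Capitals mark the cyclic AMP response element (CRE, TGACGTCA), its core TGACG, the EGR site GCGNGGGCG and the CArG box bound by serum response factor, on either strand; every CRE also holds the core.
Fos (chr12:85473740-85473889, plus strand): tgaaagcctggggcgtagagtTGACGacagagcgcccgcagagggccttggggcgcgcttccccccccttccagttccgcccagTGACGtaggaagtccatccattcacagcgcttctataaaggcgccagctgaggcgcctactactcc
Zfp36 (chr7:28379229-28379448, minus strand): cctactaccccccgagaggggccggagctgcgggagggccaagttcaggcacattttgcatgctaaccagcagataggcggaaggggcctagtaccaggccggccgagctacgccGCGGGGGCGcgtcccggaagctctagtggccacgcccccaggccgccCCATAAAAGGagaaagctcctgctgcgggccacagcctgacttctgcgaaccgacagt
Btg2 (chr1:134079156-134079375, minus strand): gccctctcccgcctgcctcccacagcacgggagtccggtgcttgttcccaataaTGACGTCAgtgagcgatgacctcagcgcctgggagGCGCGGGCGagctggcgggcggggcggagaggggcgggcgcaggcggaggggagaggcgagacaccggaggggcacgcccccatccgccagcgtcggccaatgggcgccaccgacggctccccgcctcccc
Dusp1 (chr17:26508473-26508692, minus strand): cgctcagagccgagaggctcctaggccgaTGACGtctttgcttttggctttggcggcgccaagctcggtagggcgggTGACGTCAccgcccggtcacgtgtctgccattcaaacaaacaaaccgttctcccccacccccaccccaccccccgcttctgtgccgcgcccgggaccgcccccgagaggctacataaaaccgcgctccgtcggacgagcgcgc
The search covered the 250 bases before the start of every gene, of which the nearest 150 (Fos) or 220 are shown. Btg2 and Dusp1 each held a full CRE, as did 1.55% of 32851 promoters of the same length. The TGACG core was found in Fos, Fosb, Atf3, Btg2 and Dusp1 and in 17.8% of all promoters. Btg2, Fosb and Zfp36 held the EGR site (4.7% of promoters), and Zfp36 a CArG box (1.47%). The AP-1 site TGANTCA, present in 6.75% of promoters, was not among the letters of these windows. Egr1 and Ier2 have no entry here. The RefSeq start of Zfp36 lies inside the span given in the deposited table (chr7:28376784-28380253).

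Fos (chr12:85473889-85477273, mm10) encodes the inducible partner of Jun proteins in AP-1. In Ly6Chi MoMac of vehicle mice 11 to 15, it measured 43231, 23965, 16069, 19871 and 55855 normalized counts. In Ly6Chi MoMac of Ac-6-FP mice 16 to 20 it measured 48264, 45437, 46725, 59920 and 45321. The Ac-6-FP libraries lay within a narrow band, while the vehicle libraries of mice 12, 13 and 14 were low, that of mouse 11 lay just below the Ac-6-FP range and that of mouse 15 within it, so the groups overlapped. In Ly6Clo MoMac the vehicle libraries measured 58063, 16885, 9596, 12666 and 25654, and the Ac-6-FP libraries 39136, 50927, 29164, 60843 and 37116. Here mouse 11 of the vehicle group was among the highest of all libraries, and the other vehicle libraries lay below every Ac-6-FP library. The mean level on the log2 scale was higher with Ac-6-FP by 0.78 ± 0.33 (SE) in Ly6Chi (adjusted p = 0.553, limma) and by 1.08 ± 0.45 in Ly6Clo MoMac (adjusted p = 0.528), and neither difference passed the threshold of 0.05.

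Fosb (chr7:19302696-19310045), a close relative of Fos, was scarce and uneven. It ranged from 0 to 319 (median 38.7) in Ly6Chi vehicle, from 49.96 to 214 (median 98.0) in Ly6Chi Ac-6-FP, from 0 to 335 (median 96.4) in Ly6Clo vehicle and from 6.85 to 724 (median 60.6) in Ly6Clo Ac-6-FP libraries. It was at 0 in 1 Ly6Chi and 2 Ly6Clo vehicle libraries, and all groups overlapped. Atf3 (chr1:191170296-191218039) encodes a stress-induced bZIP factor that restrains inflammatory transcription in macrophages. It measured 3560, 1663, 1027, 1370 and 1528 in Ly6Chi vehicle libraries and 2517, 2939, 1924, 2619 and 4105 in Ly6Chi Ac-6-FP libraries, in mouse order. Ly6Clo libraries held 3707, 1751, 453, 718 and 1676 with vehicle and 1915, 2460, 2743, 2801 and 3200 with Ac-6-FP. The vehicle libraries of mouse 11 were within the Ac-6-FP range in Ly6Chi and above it in Ly6Clo MoMac, and the others lay below it. The difference was 0.72 ± 0.33 in Ly6Chi (adjusted p = 0.592, limma) and 1.01 ± 0.51 in Ly6Clo MoMac (adjusted p = 0.563), the latter falling to 0.63 ± 0.42 without the Ly6Clo library of mouse 13.

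Egr1, a zinc-finger factor on chromosome 18 induced through serum response factor, was low in Ly6Chi MoMac. It measured 122, 0, 0, 0 and 30.7 with vehicle and 40.0, 108, 0, 132 and 98.4 with Ac-6-FP. A value of 0 allows up to 3 reads, by counting error only. In Ly6Clo MoMac it measured 787, 903, 0, 1.78 and 487 with vehicle and 397, 354, 599, 395 and 343 with Ac-6-FP. The Ly6Clo Ac-6-FP libraries lay between 343 and 599, whereas the vehicle libraries held 487 or more in mice 11, 12 and 15 and were at or near 0 in mice 13 and 14. Ier2 (chr8:84659551-84662854), a nuclear protein of the early response, measured 469, 267, 801, 1606 and 170 in Ly6Chi vehicle and 1027, 1893, 1500, 578 and 1022 in Ly6Chi Ac-6-FP libraries. In Ly6Clo MoMac it measured 1041, 1080, 392, 617 and 858 with vehicle and 1778, 2292, 1077, 1432 and 5597 with Ac-6-FP. The Ly6Clo groups met only at mice 12 and 18 (1080 and 1077). The difference in Ly6Clo MoMac was 1.45 ± 0.47 (adjusted p = 0.528, limma; two-sided exact permutation p = 0.0159, unadjusted, of a smallest possible 0.00794).

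**Figure D1:**
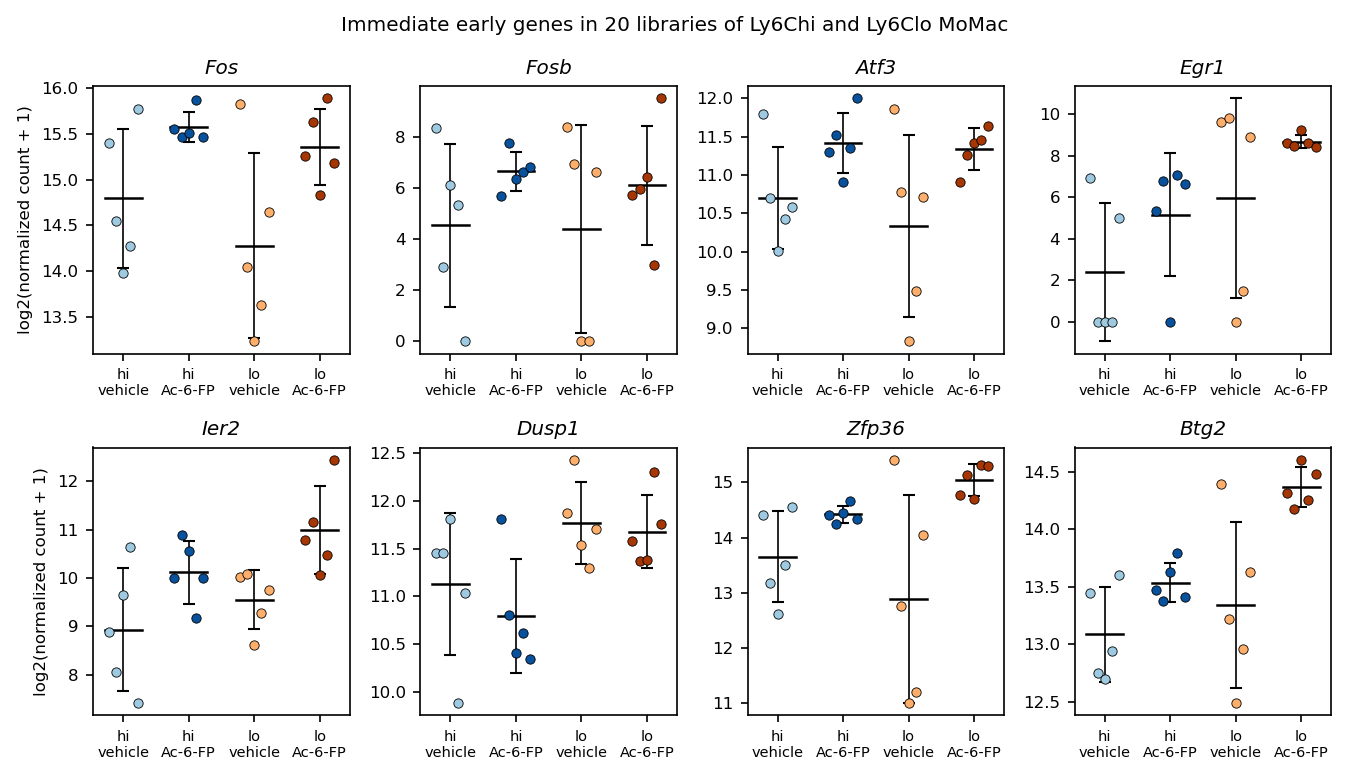
Each panel plots log2(normalized count + 1) of 1 gene in the 20 libraries, by group (hi, Ly6Chi; lo, Ly6Clo MoMac), with points for mice in numerical order, a line for the mean and a bar of ± 1 SD. Fos, Atf3, Zfp36 and Btg2 scatter widely with vehicle and narrowly with Ac-6-FP, Dusp1 scatters in both, and Egr1 and Fosb fall to 0 in some libraries.

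Among the feedback genes, Dusp1 encodes a phosphatase that switches off MAPK, Zfp36 encodes tristetraprolin, which speeds the decay of inflammatory mRNA, and Btg2 encodes an antiproliferative protein that promotes deadenylation. Dusp1 (chr17:26505591-26508476) measured 2817, 2809, 3597, 944 and 2102 in Ly6Chi vehicle and 3590, 1787, 1358, 1567 and 1299 in Ly6Chi Ac-6-FP libraries. The Ly6Clo libraries held 3757, 5533, 2974, 2511 and 3338 with vehicle and 3064, 2646, 2668, 5046 and 3456 with Ac-6-FP. The groups overlapped throughout, and the difference was -0.33 ± 0.41 in Ly6Chi (adjusted p = 0.782, limma; -0.16 without mouse 13 and -0.65 without mouse 14) and -0.09 ± 0.25 in Ly6Clo MoMac (adjusted p = 0.886).

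Zfp36 measured 21899, 9300, 6301, 11626 and 24058 in Ly6Chi vehicle and 21820, 19565, 22321, 25865 and 20767 in Ly6Chi Ac-6-FP libraries. In Ly6Clo MoMac it measured 43617, 6955, 2066, 2350 and 16937 with vehicle and 28160, 36134, 26587, 40992 and 40314 with Ac-6-FP. The vehicle libraries of mouse 11 were within or above the Ac-6-FP range in both subsets, and those of mice 12, 13 and 14, and in Ly6Clo MoMac of mouse 15, were below it. The difference was 0.77 ± 0.36 in Ly6Chi (adjusted p = 0.593, limma; 0.51 without mouse 13) and 2.16 ± 0.79 in Ly6Clo MoMac (adjusted p = 0.528; exact permutation p = 0.0476, unadjusted), and the latter was 1.69 ± 0.74 without the Ly6Clo library of mouse 13 (adjusted p = 0.640; exact permutation p = 0.0556).

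Btg2 (chr1:134074865-134079155) measured 11158, 6884, 6644, 7893 and 12458 in Ly6Chi vehicle and 11392, 10657, 12635, 14166 and 10884 in Ly6Chi Ac-6-FP libraries. For Ly6Clo MoMac the values were 21563, 9540, 5762, 7964 and 12647 with vehicle and 20384, 18570, 24919, 19590 and 22910 with Ac-6-FP. All vehicle libraries of Ly6Clo MoMac except that of mouse 11 lay below the Ac-6-FP range. The difference was 0.45 ± 0.19 in Ly6Chi (adjusted p = 0.558, limma) and 1.03 ± 0.31 in Ly6Clo MoMac (adjusted p = 0.521; exact permutation p = 0.0317, unadjusted). Without mouse 11 the Ly6Clo difference was 1.29 ± 0.22 with an adjusted p of 0.0485 (limma). Btg2 was then the one member among 103 of 17248 genes past the threshold. It passed in this 1 of 20 settings only, and its adjusted p was 0.717 without mouse 20 (limma). The Ly6Clo library of mouse 11 was not sparse, with 15723 genes detected.

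Over all 8 genes, then, 0 passed the threshold for Ac-6-FP against vehicle in Ly6Chi and 0 in Ly6Clo MoMac, where 0.0754% and 0.0522% of the 17248 genes tested did (limma, 13 and 9 genes). By edgeR on recovered reads, 0 members and 0 genes passed in either subset. At an unadjusted p under 0.05 there were 2 members in Ly6Chi and 4 in Ly6Clo MoMac, against 1506 and 1605 of all genes. None of the 8 had groups that did not overlap, as 1.35% and 1.5% of genes had. On the log2 scale, 7 of 8 members in each subset had a higher mean with Ac-6-FP and Dusp1 a lower one. For Egr1 in Ly6Clo MoMac this held on the log2 scale only, the mean normalized count being 436 with vehicle and 418 with Ac-6-FP. Their median log2 difference was 0.77 in Ly6Chi and 1.27 in Ly6Clo MoMac, beside 0.35 and 0.91 over all genes tested and 0.02 and 0.12 over the 2047 genes with a mean of at least 1000. Without the Ly6Clo library of mouse 13, the Ly6Clo medians were 0.82 for the members, 0.35 for all genes and 0.02 for the abundant genes. The change in Ly6Clo MoMac was then 0.82 for Fos, 0.82 for Btg2 and 1.21 for Ier2. Summed markers of other cells also had different medians by treatment, with overlapping ranges. In Ly6Clo MoMac the Kupffer cell medians were 16.0 with vehicle and 356 with Ac-6-FP. They were 813 and 2070 for endothelial and 1883 and 429 for erythroid markers. In Ly6Chi MoMac they were 115 and 57.4, 278 and 93.1, and 221 and 261, in that order. The Ly6Chi neutrophil medians were 13196 and 9867. The part of these cells in the changes was not tested.

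**Figure D2:**
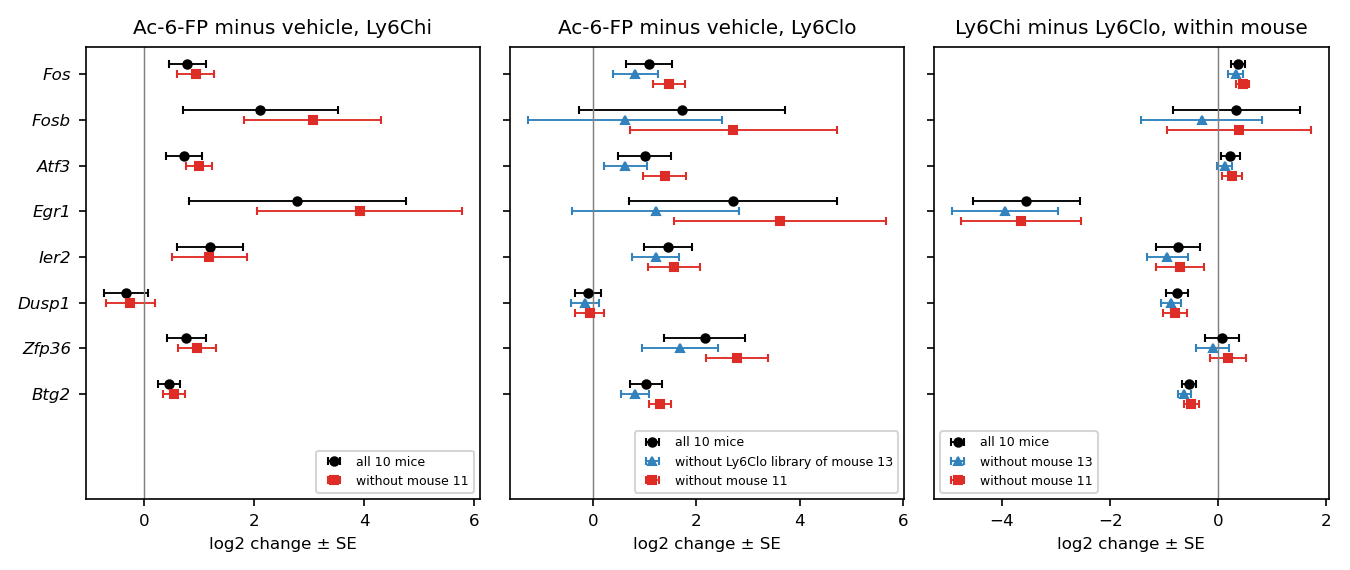
The log2 change of each gene (x axis, ± SE from limma) is plotted for Ac-6-FP minus vehicle in Ly6Chi (left) and Ly6Clo MoMac (middle) and for Ly6Chi minus Ly6Clo within mouse (right). Each panel shows all mice and the set without mouse 11. The middle panel adds the set without the Ly6Clo library of mouse 13, and the right panel the set without mouse 13. The left panel has no set without mouse 13. Leaving out mouse 11 moved Zfp36 in Ly6Clo MoMac from 2.16 to 2.79, and leaving out the Ly6Clo library of mouse 13 moved it to 1.69.

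The change with Ac-6-FP was next compared between the subsets, using the within-mouse difference Ly6Chi minus Ly6Clo. For Zfp36 this difference averaged 0.77 in vehicle mice (SD 1.26, n = 5) and -0.63 in Ac-6-FP mice (SD 0.31, n = 5), so that the mean change was larger in Ly6Clo by 1.39 on the log2 scale. Its limma estimate was -1.39 ± 0.49 with an adjusted p of 0.830 and an unadjusted exact permutation p of 0.0476. For Btg2 the within-mouse difference averaged -0.25 (SD 0.46) and -0.83 (SD 0.23), and the estimate was -0.58 ± 0.21 (adjusted p = 0.830, limma; exact permutation p = 0.0556). For the other members the estimates ranged from -0.30 (Fos) to 0.39 (Fosb). That of Fos was -0.54 without mouse 11 and -0.15 without mouse 15. Without mouse 13 the estimate was -1.18 for Zfp36, -0.47 for Btg2 and 1.89 for Fosb. In this comparison 0 members and 0 genes passed the threshold by limma (0%), with 2 members and 840 genes at an unadjusted p under 0.05, and edgeR also called 0 members. No member's within-mouse differences were separated between the treatments, as those of 0.806% of genes were.

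Between the subsets of the same mouse, Btg2, Dusp1 and Egr1 had the clearest differences. Btg2 was lower in Ly6Chi than in Ly6Clo MoMac in 9 of 10 mice, the exception being mouse 13, by 0.54 ± 0.13 on the log2 scale (adjusted p = 0.0310, limma; exact sign-flip permutation p = 0.00977). Its median was 11021 in Ly6Chi and 19080 in Ly6Clo libraries. The test pooled both treatments. The within-mouse difference of Btg2 averaged -0.83 (SD 0.23) in Ac-6-FP mice and -0.25 (SD 0.46) in vehicle mice. In vehicle mice 14 and 15 it was slight, at 7893 against 7964 and 12458 against 12647. Dusp1 had a median of 1944 in Ly6Chi and 3201 in Ly6Clo libraries and was lower in Ly6Chi in 8 of 10 mice, by 0.76 ± 0.20 (adjusted p = 0.0519, limma), just over the threshold. Egr1 was lower in Ly6Chi in 9 mice, in 1 of which (mouse 14) the values of 0 and 1.78 lay within the 3 reads that a 0 allows, and was at 0 in both subsets of mouse 13. Its median was 35.3 against 396, and its difference of -3.55 ± 0.99 had an adjusted p of 0.0631 by limma. The exact sign-flip permutation p was 0.00391, the smallest possible given the difference of 0 in mouse 13.

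The call for Btg2 depended on the set of mice. By limma, adjusted p rose above the threshold when any of mice 11, 12, 16, 17, 18, 19 or 20 was left out (0.0704 to 0.103), with no replicate block (0.0956) and with no filter on low values (0.0538), and it was 0.0898 by edgeR. Without mouse 13, whose Ly6Clo library held few genes, Btg2 (-0.62), Dusp1 (-0.88) and Egr1 (-3.94) were all past the threshold, as were 6.74% of all genes (4.45% lower in Ly6Chi). Egr1 rests on libraries at 0, and its difference was -4.50 with a pseudocount of 0.1 and -2.67 with a pseudocount of 10.

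Fos went the other way, with a mean higher in Ly6Chi by 0.37 ± 0.13, in 7 of 10 mice, and an adjusted p of 0.148 (limma). Ier2 differed by -0.74 ± 0.40 (adjusted p = 0.376), and Atf3 (0.22 ± 0.18), Zfp36 (0.07 ± 0.31) and Fosb (0.34 ± 1.18) had adjusted p-values of at least 0.552. The value for Zfp36 averages opposite signs, 0.77 in vehicle and -0.63 in Ac-6-FP mice. Without mouse 13 the differences were 0.12 for Atf3, -0.10 for Zfp36 and -0.30 for Fosb. Thus 1 of 8 members passed the threshold, beside 5.19% of all genes tested, and this member was lower in Ly6Chi, as were 3.44% of genes. The median over the members was -0.23, beside -0.03 over all genes, and without mouse 13 these medians were -0.46 and -0.17. The Ly6Clo libraries that held more Btg2, Dusp1 and Egr1 also held the Nkg7, Ncr1, Klrb1c and Retnlg transcripts named above, and in 9 of 10 each Itgax and Pecam1. The part in the difference of cells that carry these transcripts was not tested.

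**Figure D3:**
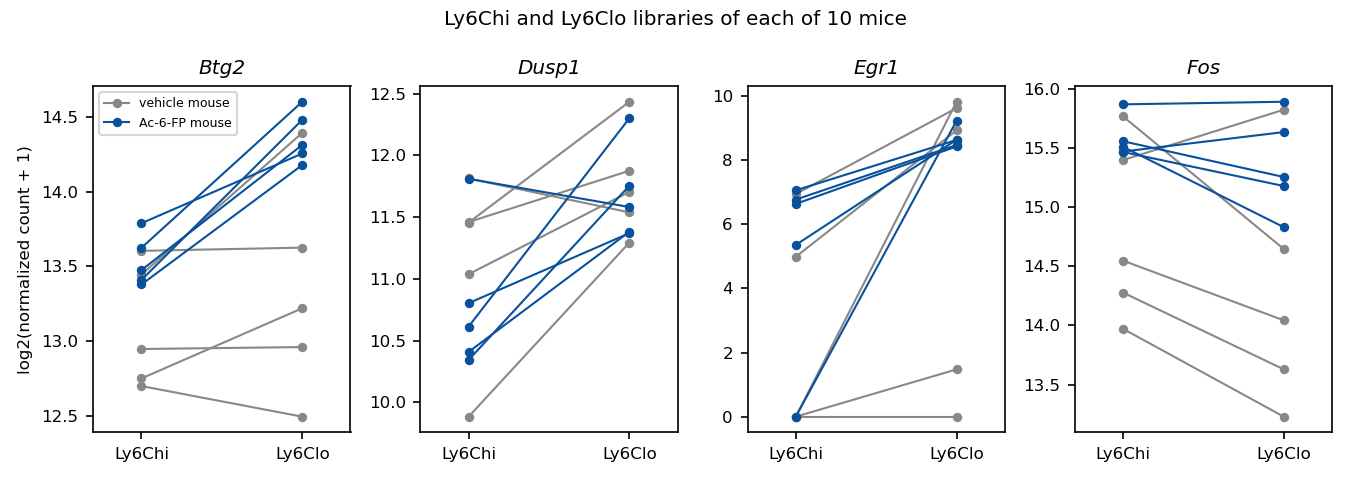
Lines join the Ly6Chi and Ly6Clo libraries of each mouse, on log2(normalized count + 1), for Btg2, Dusp1, Egr1 and Fos (grey, vehicle; blue, Ac-6-FP). Btg2 is lower in Ly6Chi in 9 of 10 mice, Dusp1 in 8 and Egr1 in 9 (in mouse 14 by under 3 reads), while Fos is higher in Ly6Chi in 7. The mean difference of Btg2 is -0.25 in vehicle and -0.83 in Ac-6-FP mice.

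Other genes of the same response were then examined as lists. None of 8 AP-1 and bZIP partners, 21 other immediate early genes, 16 feedback inhibitors, 18 upstream kinases and factors, 12 short-lived inflammatory transcripts or 9 heat shock genes passed the threshold for Ac-6-FP against vehicle in either subset, or for the comparison of the change between subsets (limma). Their medians for Ac-6-FP against vehicle were 2.11, 0.43, 0.67, 0.67, 0.08 and 0.11 in Ly6Chi and 2.17, 0.81, 1.23, 1.24, 1.17 and 0.23 in Ly6Clo MoMac, in that order. Without the Ly6Clo library of mouse 13 the Ly6Clo medians were 0.89, 0.41, 0.12, 0.85, 0.64 and 0.13, again with none of these genes past the threshold, and 13 of the 84 changes had the opposite sign. The ranges that follow include that library. Of the Ly6Clo values they name, those that differ by over 1.5 times without it are Fosl2 (2.01), Mafg (-0.65), Tob1 (-0.33), Mapk9 (-0.74), Il1b (0.76), Hspe1 (0.08) and Hsph1 (0.88). Among the partners, the changes ran from -0.50 (Batf) to 2.73 (Mafg) in Ly6Chi and from 0.75 (Mafg) to 3.46 (Fosl2) in Ly6Clo MoMac. Csrnp1 had the largest change of the other immediate early genes in both subsets (2.93 and 4.14) and Mcl1, an anti-apoptotic gene, the smallest (-0.44 and -0.59). The feedback inhibitors ran from -0.53 (Spry2) to 5.28 (Tob1) in Ly6Chi and from -0.85 (Tob1) to 3.29 (Nab2, a corepressor of EGR factors) in Ly6Clo MoMac. Of the upstream genes, Mkl1, a coactivator of serum response factor, had the largest change in both (4.48 and 3.72), and Mkl2 (-0.49) and the kinase gene Mapk9 (-1.33) had the smallest. Several of these extremes rest on few reads. Mkl2 was at 4.43 in 1 Ly6Chi vehicle library and at 0 in the other 9 Ly6Chi libraries, Nab2 was at 0 in all Ly6Clo vehicle libraries and at most 49.0 with Ac-6-FP, and Csrnp1 was at 0 in 4 of 5 Ly6Clo vehicle libraries. Il10 had the smallest change of the inflammatory transcripts (-1.24 and -1.39) and Ptgs2 (4.37) and Il1b (2.60) the largest. The heat shock genes ran from -0.05 (Dnaja1) to 0.79 (Dnajb1) in Ly6Chi and from 0.05 (Hspe1) to 2.72 (Hsph1) in Ly6Clo MoMac.

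The subset comparison gave calls in these lists, with lower levels in Ly6Chi MoMac but for Ccl2. Of the feedback inhibitors 5 of 16 were lower, beside the 3.44% of all genes given above. Btg1, the close relative of Btg2, had medians of 10298 in Ly6Chi and 16127 in Ly6Clo libraries (-0.92 ± 0.13, adjusted p = 5.9e-04, limma, lower in 10 of 10 mice), and Spry2, which restrains receptor tyrosine kinase signalling, had medians of 27.95 and 438 (-3.97 ± 0.42, adjusted p = 7.0e-05). The MAPK phosphatases Dusp2, Dusp5 and Dusp16, relatives of Dusp1, were lower in Ly6Chi in 9 of 10 mice each, with Ly6Clo medians of 379, 103 and 493 and Ly6Chi medians of 38.9, 0 and 0. Of the other immediate early genes 3 of 21 were lower. Egr2, a relative of Egr1, had a median of 0 in Ly6Chi and 399 in Ly6Clo libraries, Gem was at 0 in all Ly6Chi libraries and had a Ly6Clo median of 215, and Klf6 was lower by a modest amount (-0.63 ± 0.10) in 10 of 10 mice.

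Among inflammatory transcripts, the chemokines Ccl4 (-2.51 ± 0.16, adjusted p = 6.6e-07, limma) and Cxcl2 (-1.69 ± 0.34) and the cytokine Il10 (medians 0 and 742) were lower in Ly6Chi, and the monocyte chemoattractant Ccl2 was higher (3.76 ± 0.80, adjusted p = 0.0144), in 10 of 10 mice. The heat shock chaperones Hsp90aa1 (-0.87 ± 0.20) and Hsp90ab1 (-0.78 ± 0.11), which are also raised in dissociated cells, were lower in Ly6Chi in 10 of 10 mice, 2 of 9 heat shock genes tested. No AP-1 partner (0 of 8) and no upstream kinase or factor (0 of 18) passed. Without mouse 13, 7 of 16 feedback inhibitors, 4 of 21 other immediate early genes, 3 of 9 heat shock genes, 3 of 12 inflammatory transcripts and 1 of 8 AP-1 partners were lower, and 1 inflammatory transcript was higher, beside 4.45% of all genes lower and 6.74% called in either direction. Nkg7, Ncr1, Klrb1c, Retnlg, Itgax and Pecam1 differed between the same libraries, and their part in these differences was not tested.

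The spread between libraries differed between the treatments. In Ly6Chi MoMac the SD of the log2 level was larger with vehicle than with Ac-6-FP for 8 of 8 members, by a median ratio of 2.18, beside 70.0% of the 2047 abundant genes, with a median ratio of 1.33, and 60.1% of all genes. In Ly6Clo MoMac, without mouse 13's library, it was larger with vehicle for 7 of 8 members (not Ier2), by a median ratio of 2.84, beside 72.0% and 1.42 for the abundant genes. Zfp36 had an SD of 0.82 with vehicle and 0.15 with Ac-6-FP in Ly6Chi, and of 1.80 and 0.29 in Ly6Clo MoMac. Fos had SDs of 0.76 and 0.17 in Ly6Chi and of 0.96 and 0.41 in Ly6Clo MoMac. For Dusp1 the SDs were closer, at 0.75 and 0.59 in Ly6Chi and 0.47 and 0.38 in Ly6Clo MoMac. These ratios are a description, with no test.

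**Figure D4:**
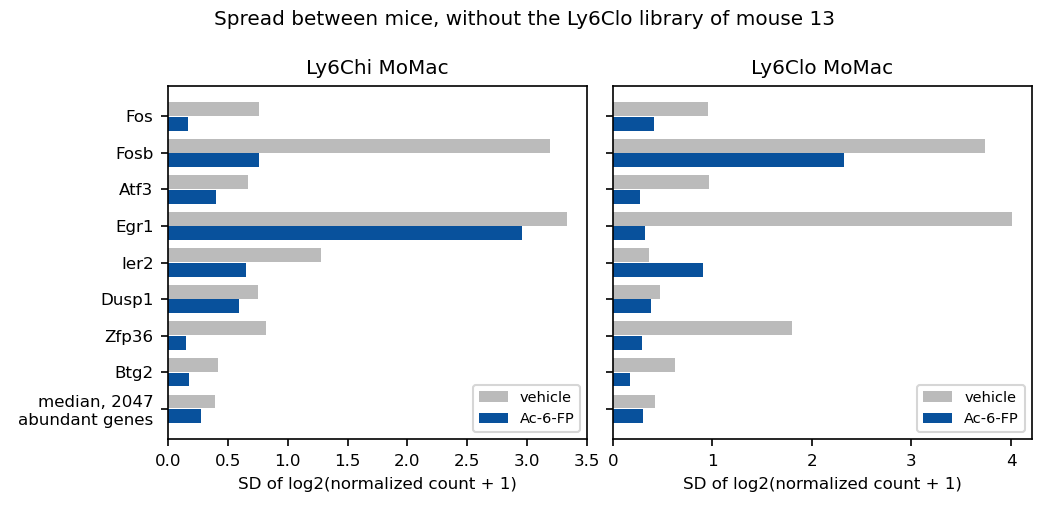
Bars give the SD between mice of log2(normalized count + 1) for each gene and the median over 2047 abundant genes, with vehicle (grey) and Ac-6-FP (blue), in 19 libraries. In Ly6Chi MoMac every member has the larger SD with vehicle, and in Ly6Clo MoMac all but Ier2, for which it is 0.37 with vehicle and 0.91 with Ac-6-FP.

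Pooled over the groups and without mouse 13's Ly6Clo library, the SD was smallest for Btg2 (0.37), close to the median of abundant genes (0.38), and rose through Dusp1 (0.57), Atf3 (0.61), Fos (0.62), Ier2 (0.89) and Zfp36 (0.93) to Fosb (2.67) and Egr1 (2.92), whose levels reach 0. With all 20 libraries, both libraries of a mouse lay on the same side of their group means in 9 of 10 mice for Fos, in 8 for Btg2 and in 7 for Zfp36. They did so for Atf3 in 6, for Dusp1 in 5, for Fosb and Egr1 in 4 and for Ier2 in 3, beside a median of 5 mice over all genes and 6 over the abundant genes. Without mouse 13 the counts, of 9 mice, were 8 for Fos, 7 for Btg2, 6 for Zfp36 and 5 for Atf3 and Dusp1. They were then 4 for Fosb and Ier2 and 3 for Egr1, beside medians of 5 over all genes and over the abundant genes.

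Between libraries, with group means removed, Fos, Zfp36 and Btg2 moved together, as described by Pearson's r over 19 libraries that share mice and a scaling per library. The value was 0.90 for Fos and Zfp36, 0.89 for Zfp36 and Btg2 and 0.81 for Fos and Btg2. Atf3 followed Zfp36 (0.78) and Egr1 (0.77). Ier2 did not follow Fos (-0.30), and the median over all 28 pairs was 0.37. Among 7313 genes with a mean of at least 100, those most like the mean of the members included Arhgdia (r = 0.93), Rps6ka1 (0.89), Eif4g2 (0.88), Fermt3 (0.88) and Krt80 (0.88), together with 4 rows that carry no symbol, beside a median r of 0.17. Nr4a1 (0.89), an immediate early nuclear receptor, was among them. The 15 other immediate early genes compared ran from -0.21 (Ier5) to 0.89 (Nr4a1), and 8 of them lay above that median. The 9 heat shock genes ran from -0.64 (Hsp90ab1) to 0.64 (Hspa5), with 5 above it. Of the remaining lists, 5 of 6 AP-1 and bZIP partners, 9 of 13 feedback inhibitors, 7 of 8 upstream kinases and factors and 9 of 9 inflammatory transcripts lay above it.

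The same libraries differed in the number of genes detected. Vehicle mice 12, 13 and 14 had the lowest numbers in Ly6Chi MoMac, 9017, 9749 and 9495, beside 14606 and 11097 in mice 11 and 15 and 11096 to 15587 with Ac-6-FP. These mice also had the lowest Fos, Zfp36 and Btg2 in Ly6Chi MoMac. In Ly6Clo MoMac the numbers were 10379, 5343 and 9788 in mice 12 to 14, beside 15723 and 13527 in mice 11 and 15. Over 19 libraries with group means removed, r with the number of genes detected was 0.77 for Atf3, 0.72 for Zfp36, 0.71 for Fos, 0.65 for Egr1 and 0.57 for Btg2, but 0.22 for Dusp1 and 0.07 for Ier2, beside a median of 0.04 for abundant genes and 0.25 for all genes. With that number as a covariate, the change with Ac-6-FP fell to 0.39 for Fos, 0.07 for Atf3 and 0.33 for Zfp36 in Ly6Chi and to 0.40, 0.29 and 0.98 in Ly6Clo MoMac, and for Btg2 to 0.25 in Ly6Chi and 0.61 in Ly6Clo MoMac. That of Ier2 went from 1.19 to 1.52 in Ly6Chi and from 1.45 to 0.95 in Ly6Clo MoMac. Vehicle and Ac-6-FP libraries differed in this number (medians 9749 and 13622 in Ly6Chi, 10379 and 14084 in Ly6Clo MoMac), and its part in the differences cannot be told apart from that of treatment.

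**Figure D5:**
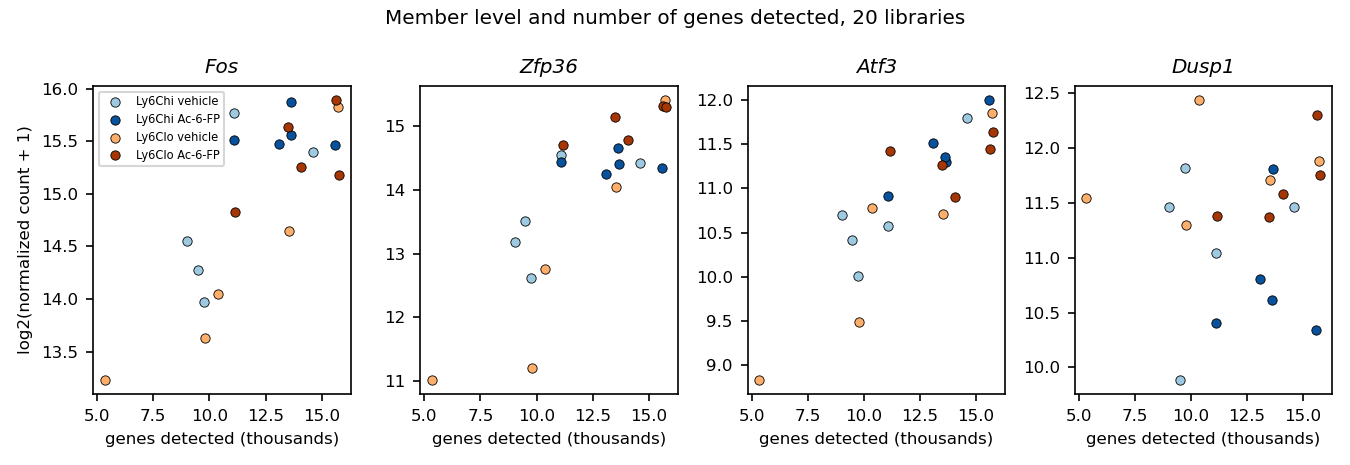
Each point is a library, with the number of genes detected, in units of 1000, on the x axis and log2(normalized count + 1) of Fos, Zfp36, Atf3 or Dusp1 on the y axis, coloured by group. Fos, Zfp36 and Atf3 are lowest in the libraries with the fewest genes, and Dusp1 shows no such order (r = 0.22 over 19 libraries, against 0.71, 0.72 and 0.77).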

How the data were processed

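RNA of 20 low-input libraries was aligned by the authors with STAR 2.4.0 to mm10, counted on constitutive regions of FAST DB genes (strand use is not given in the sources used here) and normalized with DESeq2. The deposited values are signal values, the authors' read counts divided by a size factor per library (normalized counts). Columns were assigned by their number and letter, which match the sample titles. The members and lists were chosen with earlier results of these data known. All members are named, and of other lists the genes past the threshold or else the largest and smallest changes, and the 10 rows most correlated with the members. Ier5, Hsp90ab1 and Hspa5 were named after their correlations were seen.

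The log2(normalized count + 1) of 17248 genes, with a mean of at least 10 in at least 1 group, was fitted with limma 3.58.1 (R 4.3.3, prior variance with a trend), with Benjamini-Hochberg adjustment over all of them. The p-values for Ac-6-FP against vehicle, and for the change compared between subsets, reflect the spread between 5 mice per group. Those for Ly6Chi against Ly6Clo reflect the spread of within-mouse differences over all 10 mice. Exact permutation tests were two-sided, over 252 splits or 1024 sign flips (Python 3.11.15, scipy 1.17.1, numpy 2.4.6, pandas 2.3.3). Libraries with the same mouse number were treated as a pair (replicate block), since both subsets came from the same livers (median correlation of their residuals 0.0338). Dividing by the step of each library gave whole reads for 100.0% of values above 0 in 19 libraries, within a tolerance of 0.006. On these edgeR 4.0.16 was run, without the Ly6Chi library of mouse 15, whose step was not recovered. The fits were tested on simulated data, in which limma made more false calls than its threshold implies with 5 mice against 5, but not within mouse. Alternatives covered pseudocounts, filters, quantile normalization, array weights, a covariate and leaving out libraries. The edgeR set, the restriction to abundant genes and the share of genes with a larger SD with vehicle were chosen after seeing the data.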

Additional observations from a re-analysis of the deposited data

Results flagged for a closer look

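Single values stood far from the other 4 of their group in 3 of 32 groups checked, by the gap to the nearest value over the range, where chance gives about 1 in 20. Fos in the Ly6Chi library of Ac-6-FP mouse 19 was 59920.03 normalized counts, beside 45321 to 48264 in the others. Egr1 in the Ly6Chi library of Ac-6-FP mouse 18 was at 0.00, beside 40.0 to 132. Egr1 in the Ly6Clo library of the same mouse was 598.89, beside 343 to 397.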

How the results depend on the processing

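For Ac-6-FP against vehicle in Ly6Chi MoMac, the 13 genes called became 5 with no filter, 4 with a filter at 100 and 0 with quantile normalization, the covariate or edgeR (0 to 133 leaving out a mouse, the highest without mouse 11). In Ly6Clo MoMac the 9 genes became 2 with a pseudocount of 10, no filter, a filter at 100, the covariate or without the library of mouse 13, and 0 with quantile normalization or edgeR (0 to 103, the highest without mouse 11), and members past the threshold ranged from 0 to 1. Leaving mice out gave 0 to 4 genes for the change compared between subsets, which was 2 with a filter at 100, 1 with quantile normalization, 3 with no replicate block and 3773 by the study's paired criterion (unadjusted p, fold of 1.5), which took in 1 member, Zfp36. The study applied that criterion to another set of genes, those above an intergenic background level, so 3773 is not its own count.

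For Ly6Chi against Ly6Clo, 896 genes became 1512 with array weights, 1702 with the covariate and 467 with edgeR, and the 1 member became 3 with a pseudocount of 10 (1008 genes), a filter at 100 (949) or array weights, 4 with quantile normalization (1108 genes; among the 4, Fos was higher in Ly6Chi, by 0.57), 2 with the covariate and 0 with no filter, edgeR or no replicate block (0 to 3 leaving out a mouse).

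Directions turned only for members not past the threshold. Fosb became -0.0059 (edgeR) in Ly6Chi and -0.41 (covariate) in Ly6Clo, -0.077 (array weights) between subsets, and for the compared change -0.20 (pseudocount 0.1) and -1.94 (edgeR). Egr1 became -0.88 (covariate) in Ly6Chi, -0.12 (edgeR) in Ly6Clo and -0.17 (pseudocount 10) for the compared change. Zfp36 became -0.36 (array weights) between subsets and Fos 0.021 (quantile) for the compared change. Leaving out a mouse, Dusp1 in Ly6Clo ranged from -0.25 to 0.075, Fosb between subsets from -0.30 to 1.11 and Zfp36 from -0.18 to 0.19, and the compared change of Egr1 from -1.49 to 1.497, Fosb from -1.30 to 1.89 and Ier2 from -0.68 to 0.25. The cause was not tested. Low reads limit Egr1 and Fosb, which were at 0 in 5 and 3 libraries.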
